A study of Mus musculus with 16 samples.

Results

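Respiratory complexes II to V are described here through the nuclear genes that encode their subunits, by tissue, genotype and complex. Genes were taken by name: Sdha, Sdhb, Sdhc, Sdhd, Cyc1, every symbol that starts with Uqcr or Atp5, and every symbol made of Cox4 to Cox8 followed by a letter. Of 50 genes with such names in a table of 39017, 44 had a mean normalised read count of at least 10 over the 16 libraries and were kept, 4 for complex II, 9 for complex III, 15 for complex IV and 16 for complex V. Atp5l-ps1 was dropped as a pseudogene by its name. Cox7b2, Cox8b, Cox8c, Atp5g2 and Atp5l2 were dropped for their low values. The selection used names and mean level, and no difference between groups, although Cox7a1 reached the mean of 10 only through its vMB libraries. Atp5g2, which encodes the same c subunit as Atp5g1 and Atp5g3, was listed at 0 in all 16 libraries. Its exons overlap Mir688 on the same strand, and the treatment of overlapping reads is not given. No conclusion about its expression is drawn from these values. The rule also kept 3 names that are not those of subunits of their complex: Cox7a2l encodes a factor for supercomplex assembly, Atp5s a coupling factor, and Atp5sl a protein known for complex I assembly.

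Poly-A RNA was sequenced from micro-dissected prefrontal cortex (PFC) and ventral midbrain (vMB) of male 13-week-old C57BL/6JRcc mice. WT mice were compared with Mutant mice homozygous for a CRISPR/Cas9 knock-in of the H150Y substitution in Cdh2, the gene of the adhesion protein N-cadherin. There were 4 libraries for each of PFC WT, PFC Mutant, vMB WT and vMB Mutant. The knock-in was kept in separate founder lines, and the labels do not say from which a Mutant library came, nor whether the 4 libraries of a group came from separate animals, so p-values measure the spread between libraries. The mice had been through behavioural tests and were perfused with PBS and formaldehyde before dissection.

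Complex II passes electrons from succinate to ubiquinone and is the complex with no subunit encoded by mitochondrial DNA. Complex III passes them from ubiquinol to cytochrome c, complex IV passes them from cytochrome c to oxygen, and complex V, the ATP synthase, uses the resulting proton gradient to make ATP. In complexes III to V a few subunits are translated inside the mitochondrion, while the genes described here are transcribed in the nucleus. Neurons depend on this chain for ion pumping and transmitter release.

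Genes of the respiratory chain are known for promoters that bind NRF1, the Ets factor GABP and YY1. Promoter windows from 250 bases before to 50 bases after the start site were found in RefSeq (GRCm38.p6) for 34 of the 44 members, in 38 windows. The letters GCGCANGCG (NRF1) stood in 28.9% of the members' windows and in 6.25% of all 32851 windows, counting both strands. CCGGAAG (Ets) stood in 31.6% and 8.86%, and AAGATGGCG (YY1) in 10.5% and 1.4%. GGGCGGGG, the GC box, stood in 15.8% of the members' windows and 17.6% of all windows. At least 1 of the NRF1, Ets and YY1 motifs was found for 19 of the 34 members, and NRF1 and Ets letters stood in the same window for 6 of them. The windows of 4 members whose values were higher in Mutant vMB are printed because they show these motifs in small subunits of complexes III and V. Capitals mark NRF1, Ets and YY1 matches on either strand. In Atp5k the NRF1 letters match on both strands at neighbouring positions. A match is a description of the letters, not evidence of binding.
Uqcr11 (chr10:80406772-80407071, minus strand): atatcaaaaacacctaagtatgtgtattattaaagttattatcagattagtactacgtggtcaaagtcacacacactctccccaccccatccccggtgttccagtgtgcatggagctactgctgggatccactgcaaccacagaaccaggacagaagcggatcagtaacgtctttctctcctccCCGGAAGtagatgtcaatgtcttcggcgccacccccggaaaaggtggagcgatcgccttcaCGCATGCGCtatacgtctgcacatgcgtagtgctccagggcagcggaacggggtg
Atp5h (chr11:115419870-115420169, minus strand): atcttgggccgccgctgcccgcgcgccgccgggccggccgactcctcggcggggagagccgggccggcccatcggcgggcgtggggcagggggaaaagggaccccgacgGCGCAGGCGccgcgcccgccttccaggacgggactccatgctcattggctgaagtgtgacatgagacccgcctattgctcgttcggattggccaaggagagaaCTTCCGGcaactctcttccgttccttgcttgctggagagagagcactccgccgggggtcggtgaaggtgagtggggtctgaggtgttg
Atp5k (chr5:108434350-108434649, minus strand): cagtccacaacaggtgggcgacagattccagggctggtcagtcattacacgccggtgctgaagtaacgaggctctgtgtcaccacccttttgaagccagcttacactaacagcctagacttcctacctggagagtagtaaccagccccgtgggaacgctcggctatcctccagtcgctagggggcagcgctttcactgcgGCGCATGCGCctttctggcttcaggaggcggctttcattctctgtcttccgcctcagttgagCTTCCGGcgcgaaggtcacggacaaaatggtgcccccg
Atp5j2 (chr5:145191492-145191791, minus strand): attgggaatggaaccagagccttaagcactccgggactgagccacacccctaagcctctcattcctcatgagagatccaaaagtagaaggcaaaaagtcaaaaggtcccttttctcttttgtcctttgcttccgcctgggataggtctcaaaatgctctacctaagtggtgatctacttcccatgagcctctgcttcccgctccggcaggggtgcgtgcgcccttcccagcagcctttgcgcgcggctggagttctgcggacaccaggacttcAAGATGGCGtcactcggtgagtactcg

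The libraries held about 7.74 to 11.3 M reads, estimated from the step between low values. Cdh2 itself had a normalised read count of 1053 ± 105 (SD, n = 4) in PFC WT and 635 ± 112 in PFC Mutant, and of 1117 ± 27.5 in vMB WT and 829 ± 287 in vMB Mutant. Its groups did not overlap in the PFC. In the vMB they did, with values from 1081.9 to 1148.4 in WT and from 573.5 to 1109.7 in Mutant. The tissue labels held: 8 of 8 rows of cortical markers were lower in vMB WT than in PFC WT, and 5 of the 6 tested vMB markers, Th and Slc6a3 among them, were higher. Summed values of 7 oligodendrocyte markers were between 23173 and 31454 in 3 PFC WT libraries and 67710 in PFC WT 3, and between 26798 and 39612 in 3 PFC Mutant libraries and 88705 in PFC Mutant 2. PFC WT 3 and PFC Mutant 2 stand apart in these markers. Without either of them, no member was called in the PFC, which was also so without PFC WT 1, PFC WT 4 or PFC Mutant 1.

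The summed normalised read count of all 44 genes was higher in every Mutant library than in every WT library of the same tissue. It was 54569, 56253, 54190.0 and 54788 in the 4 PFC WT libraries, and 64419, 66783, 62988 and 62513 in the 4 PFC Mutant libraries. It was 78514, 71713, 70574 and 68590.0 in vMB WT, and 83359, 89382, 85540.0 and 90297 in vMB Mutant. The groups did not overlap in either tissue, and the ratio of the means, Mutant to WT, was 1.17 in the PFC and 1.20 in the vMB. Complex II had the smallest ratio, 1.09 in both tissues. Complex IV had the largest, 1.23 in the PFC and 1.27 in the vMB. The ratios were 1.16 and 1.22 for complex III and 1.14 and 1.18 for complex V. These sums weigh each gene by its level, and no test was run on them. By the median log2 change of single genes, complex III was highest in the PFC, at 0.27 against 0.25 for complex IV. In the vMB complex IV was highest, at 0.35 against 0.32 for complex V.

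**Figure D1:**
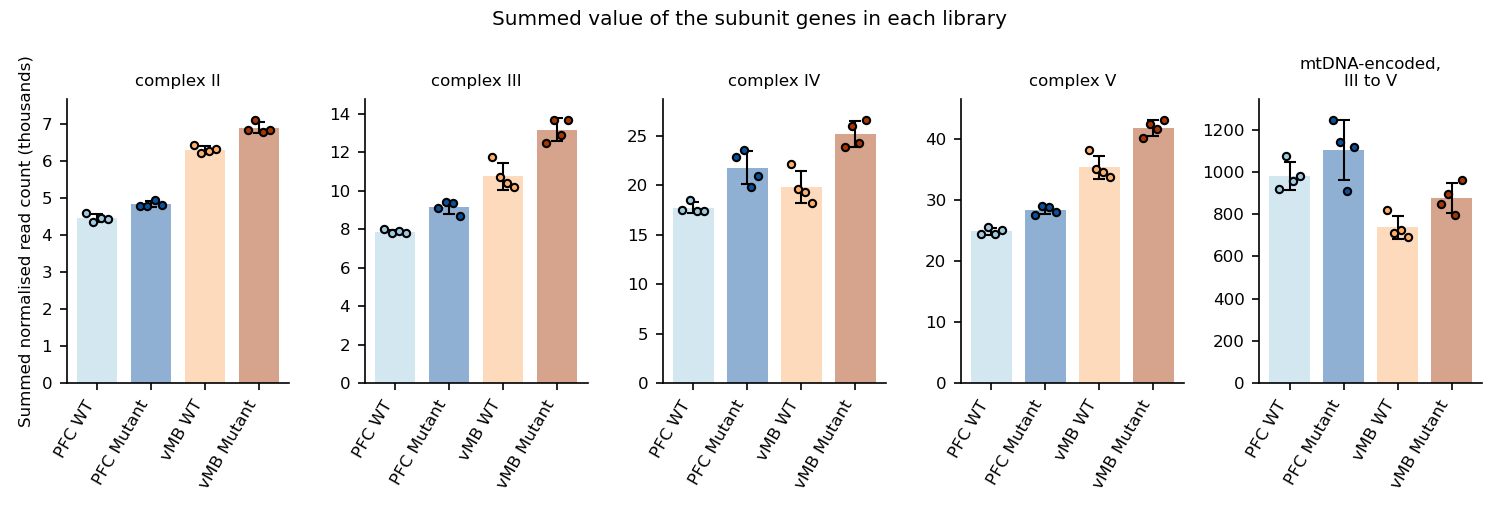
Summed normalised read count (in units of 1000, y axis from 0) of the nuclear genes of each complex and of the mtDNA-encoded subunits of complexes III to V, in PFC WT, PFC Mutant, vMB WT and vMB Mutant. Bars are means, error bars SD and points the 4 libraries. For complexes II to V every Mutant library lies above every WT library of its tissue. The mtDNA-encoded sums overlap between genotypes. They are lower in vMB WT than in PFC WT and overlap between the tissues of Mutant mice.

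Genotype comparisons were made gene by gene on log2(value + 1) with limma over all 14814 genes with a mean of at least 10, and calls needed both a fold of 1.3 or more and a Benjamini-Hochberg adjusted p no higher than 0.05. In the PFC, all 44 members had a positive log2 change, Mutant against WT, with a median of 0.23 and a range of 0.05 to 0.44, beside a median of -0.01 over all tested genes. Only Cox6c was called, against 0.0473% of all tested genes called higher in the PFC and 0.0945% called lower. Cox4i1 also passed the adjusted p, which 0.0743% of all tested genes did in the same direction, but not the fold minimum. At an unadjusted p under 0.05 there were 31 members, beside 17.1% of all tested genes. The count of PFC calls went from 1 to 0 without PFC WT 1, 3 or 4 or PFC Mutant 1 or 2, to 4 without PFC WT 2 and to 5 without PFC Mutant 3. Over all tested genes the calls higher in the PFC went from 7 to 75 without PFC WT 2, to 120 without PFC Mutant 3 and to at most 2 without any 1 of the 5 libraries that ended the call. For 27 members every Mutant library lay above every WT library, which was the case for 4.23% of all tested genes, and for none did every Mutant library lie below, against 3.79%.

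In the vMB, 43 of 44 members had a positive log2 change, with a median of 0.33, and Sdha was at -0.01. There, 13 members were called higher, 4 of complex III, 4 of complex IV and 5 of complex V, while 1.23% of all tested genes were called higher and 2.02% lower. No member was called lower. The count fell to 2, Atp5j2 and Uqcrq, without vMB WT 4, and to 6 without vMB Mutant 4, where the calls higher over all tested genes fell from 182 to 45 and 52. At the adjusted p alone, 29 members were higher, beside 3.1% of all tested genes. For 32 members every vMB Mutant library was above every vMB WT library, beside 7.82% of all tested genes, and for no member was every one below, beside 7.56%. When both tissues were averaged, Atp5k and Cox6c were called and 35 members were higher at the adjusted p alone; over all tested genes 0.945% were called higher, 1.64% called lower and 6.34% higher at the adjusted p alone. The sample titles carry codes of unstated meaning, 4 of which stand in both tissues, 2 in WT and 2 in Mutant, and PFC and vMB were dissected from the same hemispheres, so libraries of the 2 tissues may share animals. With the code as a correlated block in limma the counts of members called were as before, 2 over both tissues and 24 and 30 higher between the tissues of WT and Mutant mice.

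**Figure D2:**
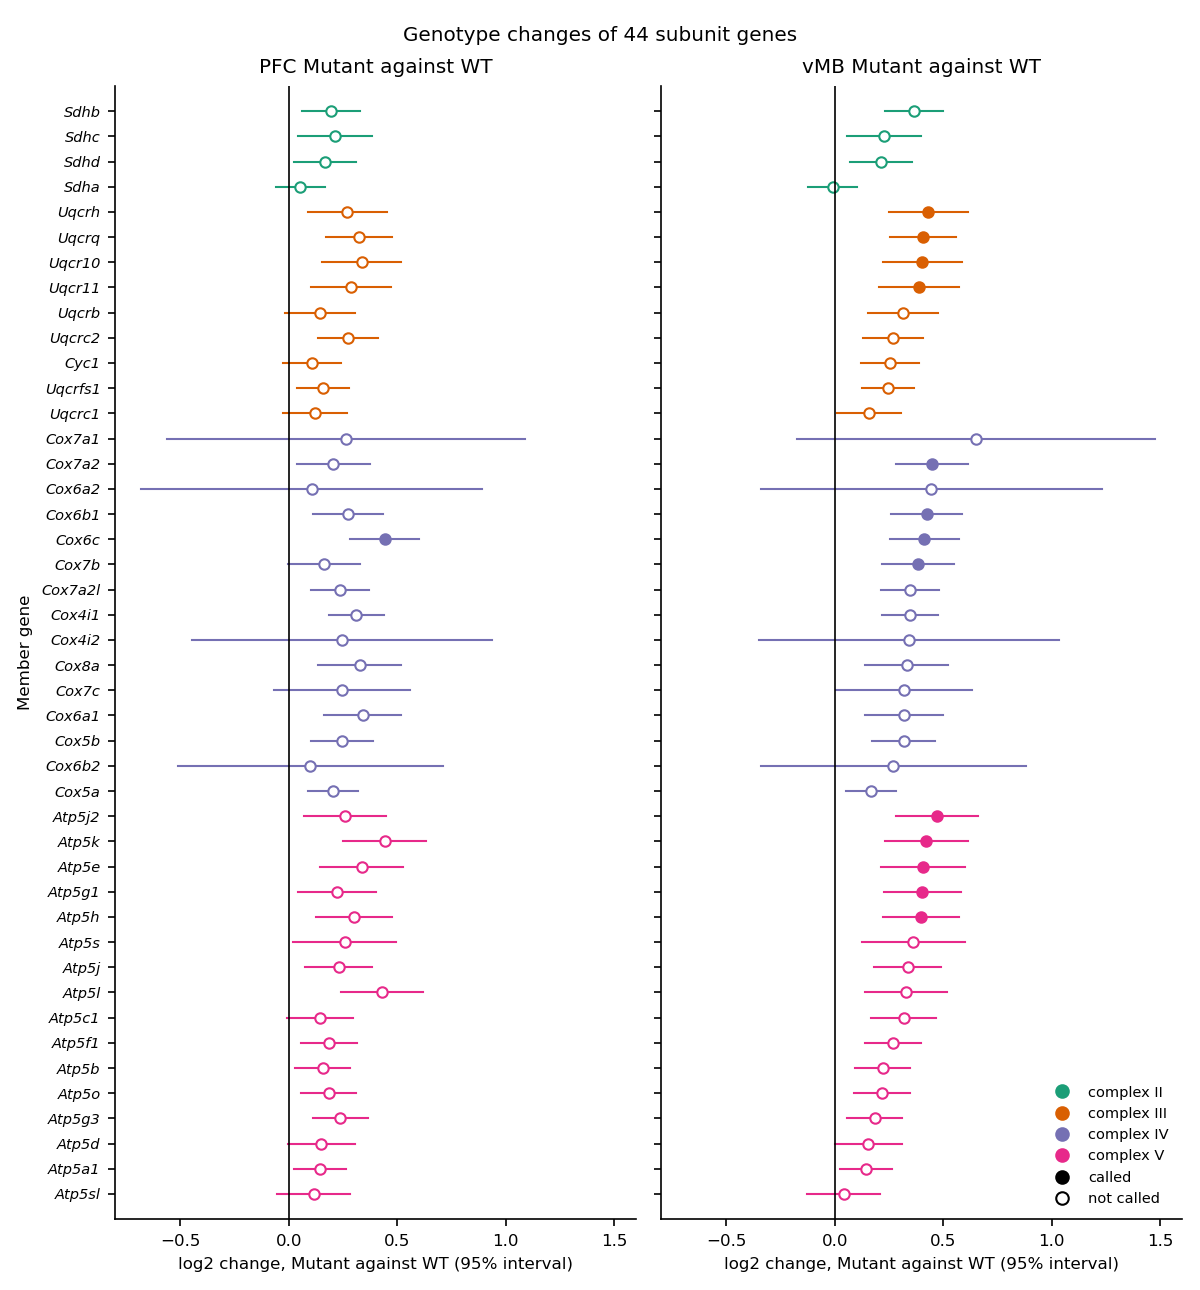
log2 change, Mutant against WT (x axis), of the 44 genes in the PFC (left) and the vMB (right), grouped by complex in colour. Points are limma estimates, lines their 95% intervals and filled points the called genes, which are Cox6c in the PFC and 13 genes in the vMB.

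Cox6c, a small subunit of complex IV with no known catalytic role, was the gene called in every genotype comparison. The gene (ENSMUSG00000014313) lies at chr15:35925886-35938246 on the minus strand (GRCm38, GENCODE), where exons of Vps13b on the other strand overlap it. Its normalised read count was 1332, 1354, 1308 and 1271 in PFC WT and 1855, 1959, 1604 and 1755 in PFC Mutant. In the vMB it was 1817, 1708, 1723 and 1480.4 in WT and 1995, 2331, 2228 and 2396 in Mutant. Mutant and WT libraries did not overlap in either tissue. The log2 change was 0.44 ± 0.08 (SE) in the PFC (adjusted p = 0.0386, limma) and 0.41 ± 0.08 in the vMB (adjusted p = 0.00651, limma). The PFC call was lost when any of 5 of the 8 PFC libraries was left out, with adjusted p up to 0.12, whereas the call over both tissues was kept in 16 of 16 fits that left out a library.

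Cox4i1, the ubiquitous form of the regulatory subunit 4 of complex IV, had values of 2604, 2923, 2599 and 2616 in PFC WT and 3451, 3504, 3133 and 3242 in PFC Mutant. All 4 Mutant libraries were higher, with a log2 change of 0.31 ± 0.06 (adjusted p = 0.0477, limma), under the fold minimum. In the vMB its values were 3534, 3087, 3187 and 3044 in WT and 3978, 4106, 4037 and 4188 in Mutant, with a log2 change of 0.35 ± 0.06 (adjusted p = 0.00523, limma). The exons of Cox4i1 overlap those of Emc8 on the other strand, and the counting mode for strand is not given.

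A further 3 genes of complex IV were called in the vMB alone. Cox6b1, which encodes a subunit on the intermembrane side, had values of 1799, 1597, 1502 and 1429 in vMB WT and 1839.8, 2271, 2066 and 2309 in vMB Mutant, a log2 change of 0.42 ± 0.08. The lowest Mutant library was close to the highest WT library, with no overlap. Cox7a2, the ubiquitous form of subunit 7a, ranged from 879.8 to 1181 in vMB WT and from 1281 to 1518 in vMB Mutant, a log2 change of 0.45. Cox7b, a small X-linked subunit, ranged from 1496 to 1792 and from 1916 to 2226, a log2 change of 0.38. In the PFC the log2 changes of these 3 genes were 0.27, 0.21 and 0.16, none of them called. Among the other members of complex IV, the vMB log2 change was smallest for Cox5a, 0.17 ± 0.06, which encodes a matrix-side subunit.

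In complex III, the 4 called genes encode small subunits with no redox centre. Uqcrh, the hinge protein at the cytochrome c1 face, had values of 1367, 1221, 1112 and 1057 in vMB WT and 1426, 1711, 1577 and 1684 in vMB Mutant, a log2 change of 0.43 ± 0.09 (adjusted p = 0.00957, limma). Every Mutant library was higher, WT 1 being nearest. Uqcrq had a log2 change of 0.41, Uqcr10 of 0.4 and Uqcr11 of 0.39, with highest WT values of 979.9, 893 and 636 and lowest Mutant values of 1054, 919.9 and 701. Uqcrb, a small subunit of the same kind, passed the adjusted p but not the fold minimum, with 892 ± 58.5 in vMB WT and 1112 ± 121 in vMB Mutant and a log2 change of 0.31, and its groups overlapped. So did the core protein gene Uqcrc2, at 0.27, whose groups did not overlap. Cyc1, which encodes cytochrome c1, rose by 0.25 at the adjusted p alone, and Uqcrfs1, the Rieske iron-sulphur protein, by 0.24. Uqcrc1, a core protein, had the smallest vMB log2 change of the complex, 0.16 ± 0.07, which did not pass. In the PFC the log2 changes ran from 0.11 for Cyc1 to 0.34 for Uqcr10, none called.

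In complex V, 4 of the 5 genes called in the vMB encode parts of the membrane sector or stalk, and Atp5e encodes the epsilon subunit of the central stalk. Atp5j2, the f subunit, had values of 1298, 1050.5, 1009 and 909 in vMB WT and 1339.5, 1536, 1432 and 1569 in vMB Mutant, the largest log2 change among the called members at 0.47 ± 0.09 (adjusted p = 0.00719, limma). The WT 1 library lay just under the lowest Mutant library. Atp5j2 was the only one of the 13 vMB calls that was kept whichever of the 8 vMB libraries was left out. Atp5k, the e subunit that joins neighbouring ATP synthases, had values of 456, 457, 377 and 379 in PFC WT and 568, 573, 559 and 559 in PFC Mutant, and of 589, 543, 493 and 479 in vMB WT and 619, 771, 670.4 and 761 in vMB Mutant. Its log2 change was 0.44 ± 0.09 in the PFC (adjusted p = 0.0537, limma), not called, 0.42 ± 0.09 in the vMB (adjusted p = 0.0124, limma) and 0.43 ± 0.06 over both tissues (adjusted p = 0.000878, limma). The groups did not overlap in either tissue.

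Atp5h, the d subunit of the peripheral stalk, ranged from 1476 to 1840.3 in vMB WT and from 1874 to 2381 in vMB Mutant, a log2 change of 0.4. Atp5e ranged from 372 to 524 and from 553 to 595, a log2 change of 0.41. Atp5g1, a source of the c subunit of the rotor ring, ranged from 1116 to 1504 and from 1567 to 1698, a log2 change of 0.4 ± 0.08, while Atp5g3, which encodes the same mature protein, had 0.18 ± 0.06 and was not called. Atp5b, the beta subunit and the member with the highest value, had 11899, 10846, 10502 and 10459 in vMB WT and 12509.8, 12960.0, 12446 and 12942 in vMB Mutant, a log2 change of 0.22 ± 0.06 (adjusted p = 0.0373, limma). Atp5a1, the alpha subunit, had a log2 change of 0.14 ± 0.06 and did not pass. Atp5sl had the smallest change of the names in this complex in both tissues, 0.12 in the PFC and 0.04 in the vMB, and Atp5l, the g subunit, had 0.43 in the PFC (adjusted p = 0.0555, limma) and 0.33 in the vMB, neither called.

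**Figure D3:**
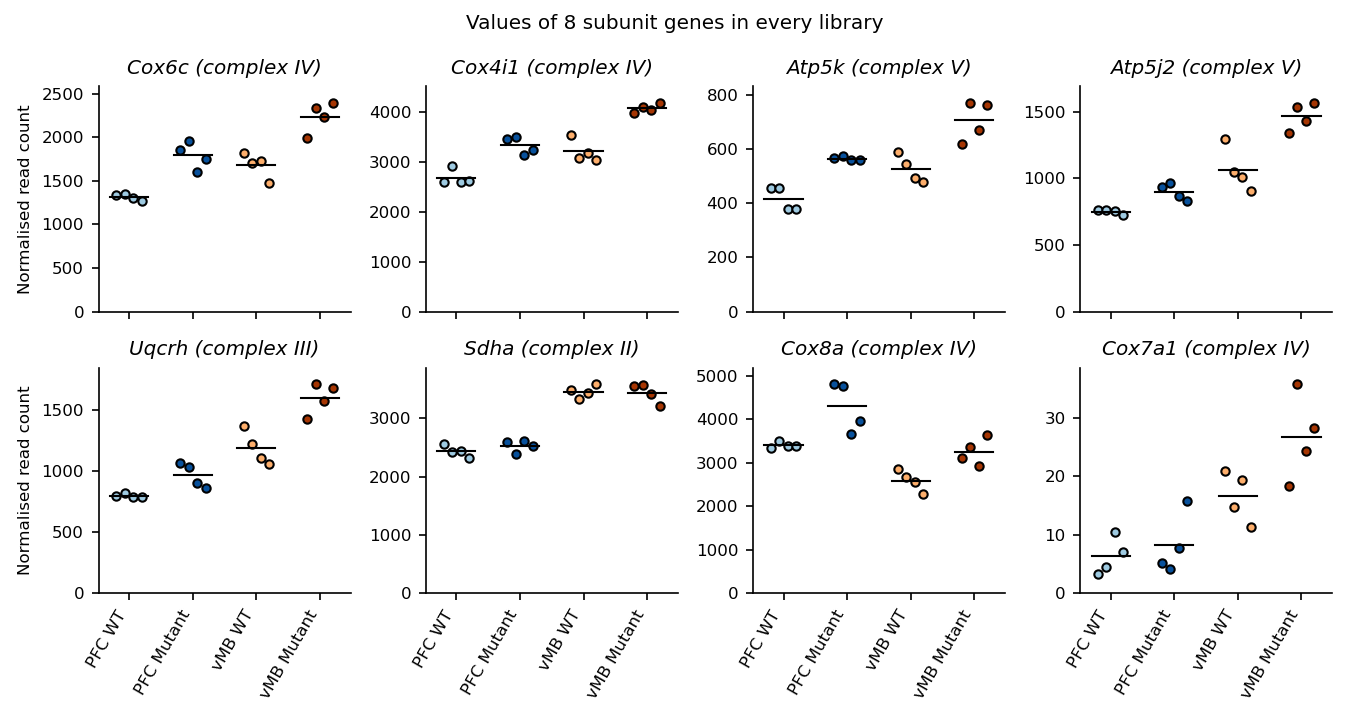
Normalised read count (y axis from 0) of Cox6c, Cox4i1, Atp5k, Atp5j2, Uqcrh, Sdha, Cox8a and Cox7a1 in every library of the 4 groups. Points are libraries and lines group means; Mutant libraries lie above WT libraries of the same tissue for the first 5 genes, Sdha overlaps, and Cox8a is lower in the vMB than in the PFC.

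All 4 genes of complex II were below the fold minimum. Sdha, the flavoprotein that oxidises succinate, had values of 2560.3, 2426, 2444 and 2318 in PFC WT and 2587, 2393, 2613 and 2521 in PFC Mutant, and of 3484, 3330.4, 3433 and 3583 in vMB WT and 3553, 3572, 3421 and 3204 in vMB Mutant. Its groups overlapped in both tissues, and the exact two-sided permutation p was 0.257 in the PFC and 0.8 in the vMB (n = 4 against 4). Sdhb, the iron-sulphur subunit, was at 1121, 1093, 1141 and 1066 in vMB WT and 1401, 1403, 1387 and 1506 in vMB Mutant, with no overlap, and passed the adjusted p with a log2 change of 0.37 ± 0.06 (adjusted p = 0.00447, limma). The membrane anchors Sdhc and Sdhd had vMB log2 changes of 0.23 and 0.21, and PFC changes of 0.21 and 0.17, none of which passed. The difference between Sdhb and Sdha within the complex was not tested.

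The change was larger in the vMB than in the PFC for 35 of 44 members, beside 7461 of all 14814 tested genes. With a library left out, the count of members was between 30, without PFC Mutant 4, and 39, without vMB WT 1. The difference between the tissues was called for none of the members in the limma interaction test, as for 0.0% of all tested genes in either direction. The lowest adjusted p of a member there was 0.842, and 1 member had an unadjusted p under 0.05, beside 5.83% of all tested genes. Across the 44 genes the vMB and PFC changes had Pearson's r of 0.55 and Spearman's rho of 0.58, a description over genes of the same libraries.

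The subunit genes also differed between tissues with no mutation. In WT mice the median log2 difference, vMB minus PFC, was 0.46, and 24 members were called higher in the vMB and 2 lower, while 22.0% of all tested genes were called higher and 21.6% lower. The calls took in 3 of 4 genes of complex II, 6 of 9 of complex III and 11 of 16 of complex V, but 4 of 15 of complex IV, which also held both lower calls. Those of complex IV included Cox7a1, which passed the filter on low values only through the vMB. In Mutant mice 30 members were called higher and 2 lower, with a median of 0.51, beside 23.7% and 23.6% of all tested genes. Both comparisons set different dissections side by side, and the number of cells of a type and the RNA per cell cannot be told apart in them. Cell type markers moved with the same comparison. In WT mice all 7 oligodendrocyte markers were called higher in the vMB, with a median log2 difference of 2.19 and summed values from 23173 to 67710 in the PFC and from 136070 to 162870 in the vMB. Of 7 microglial markers 5 were called lower, with a median of -0.66 and sums from 3000.3 to 4260.7 against 2483.2 to 2663.5. Of 8 neuronal markers 3 were called higher and 3 lower, and of 7 astrocyte markers 3 were higher and 2 lower. The part of these cell types in the members' tissue differences was not tested.

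The highest and lowest tissue differences fell on isoforms of complex IV. Cox7a1, the heart and muscle form of subunit 7a, was at 3.32, 4.52, 10.4 and 7.08 in PFC WT and 20.8, 14.7, 19.4 and 11.4 in vMB WT, a log2 difference of 1.32 ± 0.39 (adjusted p = 0.00826, limma). Its PFC means, 6.34 in WT and 8.17 in Mutant, were under the filter of 10, and it was kept through its vMB values. The tissue test of Cox7a1 is therefore not independent of the filter, and no conclusion is drawn from it. Cox7a1 was low everywhere, and its vMB Mutant libraries held 18.4, 35.7, 24.3 and 28.3, a log2 change of 0.65 ± 0.39 against WT that did not pass (adjusted p = 0.37, limma). Cox6a2, the muscle form of subunit 6a, went the other way, with 56.5, 55.4, 53.3 and 50.7 in PFC WT and 24.6, 7.36, 35.5 and 15.2 in vMB WT, a log2 difference of -1.54 ± 0.37 (adjusted p = 0.0019, limma). Cox6b2, known as the testis form, was higher in the vMB at 24.7 ± 10.6 against 10.9 ± 2.3, a log2 difference of 1.05. Cox4i2, the form of subunit 4 known from lung, had 14.5 ± 8.77 in PFC WT and 14.2 ± 3.87 in vMB WT.

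The ubiquitous isoforms were far more abundant. Cox8a, which encodes a small subunit of complex IV, had the highest mean value per kilobase of annotated transcript of all members, 6151, followed by Cox6a1 at 5366, Atp5b at 5177 and Cox4i1 at 4349. Cox8a was at 3331, 3504, 3388 and 3376 in PFC WT and 2842, 2661, 2558 and 2281 in vMB WT, with no overlap and a log2 difference of -0.4 ± 0.09. Cox6a1 had a log2 difference of -0.2 ± 0.08, not called, whereas Cox5a rose by 0.75 ± 0.06. In complexes III and V the largest differences were those of Uqcrc1, at 0.62, and Atp5f1, the b subunit of the peripheral stalk, at 0.65, and the smallest those of Uqcr11, at -0.08, and Atp5d, the delta subunit, at 0.05. In complex II the differences ran from 0.38 for Sdhb, which was not called, to 0.58 for Sdhc.

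**Figure D4:**
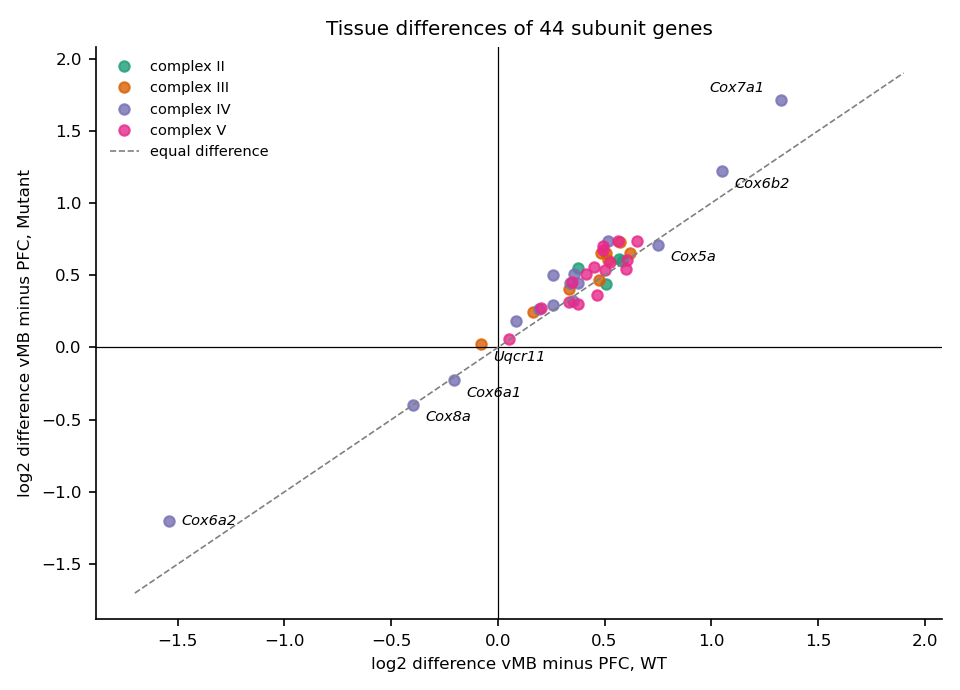
log2 difference between vMB and PFC of the 44 genes in WT mice (x axis) and in Mutant mice (y axis), coloured by complex, with a dashed line where both are equal. Points are limma estimates; 40 of 44 genes are higher in the vMB in both genotypes, Cox6a2, Cox8a and Cox6a1 are lower in both, and Uqcr11 is near 0.

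The subunits of complexes III to V that mitochondrial DNA encodes went the opposite way between tissues. Their summed normalised read count was between 919390 and 1074800 in PFC WT and between 693700 and 818940 in vMB WT. The median log2 difference of the 6 genes in WT mice was -0.39, and 4 were called lower in the vMB, beside 21.6% of all tested genes, with none higher. In Mutant mice the sums overlapped, from 908760 to 1245800 in the PFC and from 796660 to 961720 in the vMB. The median there was -0.31, and only mt-Cytb was called lower, beside 23.6% of all tested genes. Between genotypes all 6 had a positive log2 change, with a median of 0.17 (PFC) or 0.27 (vMB), but none was called and for none was every Mutant library above every WT library. At an unadjusted p under 0.05 there were 1 of 6 in the PFC and 4 of 6 in the vMB, beside 17.1% and 20.9% of all tested genes. Over both tissues, 4 of the 6 were higher at the adjusted p alone, beside 6.34% of all tested genes, and none was called. The ratio of the mean sums, Mutant to WT, was 1.12 in the PFC and 1.19 in the vMB. mt-Co3, a core subunit of complex IV, had the largest vMB log2 change of them, 0.35 (adjusted p = 0.0648, limma).

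Other genes of the pathway were listed by their role. Of 40 electron carrier and assembly factor genes, 35 were tested. None was called in the PFC and 5 were called higher in the vMB, beside 0.0473% and 1.23% of all tested genes called higher. These were Usmg5 and 2010107E04Rik, whose products are small proteins attached to ATP synthase, and Atpif1, the inhibitor of its hydrolysis. The others were Uqcc2, an assembly factor of complex III, and Cox14, an assembly factor of complex IV. The log2 changes of these 5 genes were 0.48, 0.43, 0.43, 0.43 and 0.4. Over the list the median was 0.06 (PFC) or 0.15 (vMB). Of 17 names listed for regulators of mitochondrial biogenesis, 2 (Twnk and Peo1) belong to 1 gene. All 16 genes were tested and none was called by limma in either tissue. At an unadjusted p under 0.05 there were 2 in the PFC and 1 in the vMB, beside 17.1% and 20.9% of all tested genes. The vMB gene was Tfam, which encodes the mitochondrial transcription factor A and passed the adjusted p but not the fold minimum, at 251 ± 20.5 in WT and 322 ± 35.5 in Mutant, a log2 change of 0.36 (adjusted p = 0.0487, limma), with groups that overlapped. The coactivator gene Ppargc1a had mean values of 387 in PFC WT, 304 in PFC Mutant, 544 in vMB WT and 505 in vMB Mutant, and Gabpa and Nrf1 were not called. None of the 3 phosphate and adenine nucleotide carriers was called, but Slc25a4, an adenine nucleotide carrier, passed the adjusted p in the vMB with a log2 change of 0.19 (adjusted p = 0.0327, limma) and over both tissues with 0.18 (adjusted p = 0.00327, limma). Of 45 genes whose names start with Nduf, most of them subunits of complex I, none was called in the PFC and 12 were called higher in the vMB. The shares of all tested genes called higher were 0.0473% and 1.23%, and the medians of the Nduf genes were 0.21 and 0.34.

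Transcript length moved with genotype in these libraries, and the members are short. The median annotated transcript was 823.5 nt for the members and 3024 nt for all tested genes, and 25 of 44 members were under 1000 nt, 13 of them in complex IV, 8 in complex V, 4 in complex III and none in complex II. The slope of a library's log2 deviations on log2 transcript length was 0.0926 ± 0.0267 (SD, n = 4) in PFC WT and -0.00719 ± 0.032 in PFC Mutant, and 0.0174 ± 0.0339 in vMB WT and -0.103 ± 0.0387 in vMB Mutant. The groups did not overlap in either tissue, and the exact two-sided permutation p was 0.0286 in both, the smallest that 4 against 4 allows. The more negative the slope, the higher short transcripts stood relative to long ones. Over the 44 members the vMB change and log2 transcript length had Pearson's r of -0.55 and Spearman's rho of -0.53, and the PFC change r of -0.52 and rho of -0.53, a description over genes that share libraries.

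Other genes under 2000 nt had positive medians too, and longer ones a negative median. Among tested genes with transcripts under 600 nt, the median vMB log2 change was 0.36 for the 12 members and 0.29 for 283 other genes. Of these, 5 members and 13.4% of the others were called higher. From 600 to under 1000 nt it was 0.35 for 13 members, 5 of them called higher. For 734 others it was 0.25, with 7.9% called higher. From 1000 to under 2000 nt it was 0.27 for 14 members, 2 of them called higher. For 2885 others it was 0.12, with 1.63% called higher. At 2000 nt or more it was 0.14 for 5 members, 1 of them called higher. For 10713 others it was -0.06, with 0.243% called higher. In the PFC the same classes gave 0.31, 0.24, 0.17 and 0.14 for members and 0.26, 0.21, 0.11 and -0.05 for other genes. The members lay above the other genes in each class, a difference that was not tested. The classes depend on the transcript chosen, the longest where principal transcripts tied. Uqcrq was placed by 1521 nt, and its shortest principal transcript has 405 nt. Atp5g1 was placed by 4715 nt, and its shortest has 596 nt.

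Within the vMB groups, libraries with lower slopes had higher values for most members. The vMB WT 1 library, with the lowest slope of its group at -0.0282, had the highest value of the 4 vMB WT libraries for 35 of 44 members, and vMB WT 4, with the highest slope at 0.0511, the lowest value for 28. Among vMB Mutant libraries, replicates 2 and 4 had slopes of -0.136 each and were highest for 20 and 21 members, and replicate 1, at -0.063, was lowest for 26. Markers of ependyma and choroid plexus also differed between these libraries. The sum of 5 such markers was 9870.5, 512, 3150 and 3561 in vMB WT 1 to 4. In vMB Mutant 1 to 4 it was 1044, 8390, 2851 and 7795. The part of these cells in the order of the libraries was not tested. In the PFC the order was not as regular. PFC WT 2 and PFC Mutant 2, with the lowest slopes of their groups at 0.0545 and -0.0428, were highest for 19 and 17 members, but PFC Mutant 3, with the highest slope of its group at 0.0296, was highest for 13 and lowest for 14. PFC Mutant 4, at 0.00707, was highest for 2 and had the lowest sum. With the trend on transcript length removed from each library, an alternative chosen after the data were seen, the members' median change was 0.08 (PFC) or 0.14 (vMB), and 41 and 42 of 44 were above 0. The vMB calls went from 13 to 1, Atp5g1, at 0.51 (adjusted p = 0.0258, limma), and the PFC calls to 0. Over all tested genes with a length the calls higher in the vMB were then 26, or 0.177%, and 0 in the PFC. Atp5g1 was given 4715 nt there, the longest of 4 principal transcripts, of which the shortest has 596 nt. With summed exon length in place of transcript length, 4 vMB calls were left, Atp5g1, Atp5j2, Atp5l and Cox6c, and 0 in the PFC, beside 72 and 0 of all tested genes. The tissue differences changed less, with 17 members higher and 2 lower in WT vMB after the transcript length trend was removed. Why length and genotype moved together was not tested.

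**Figure D5:**
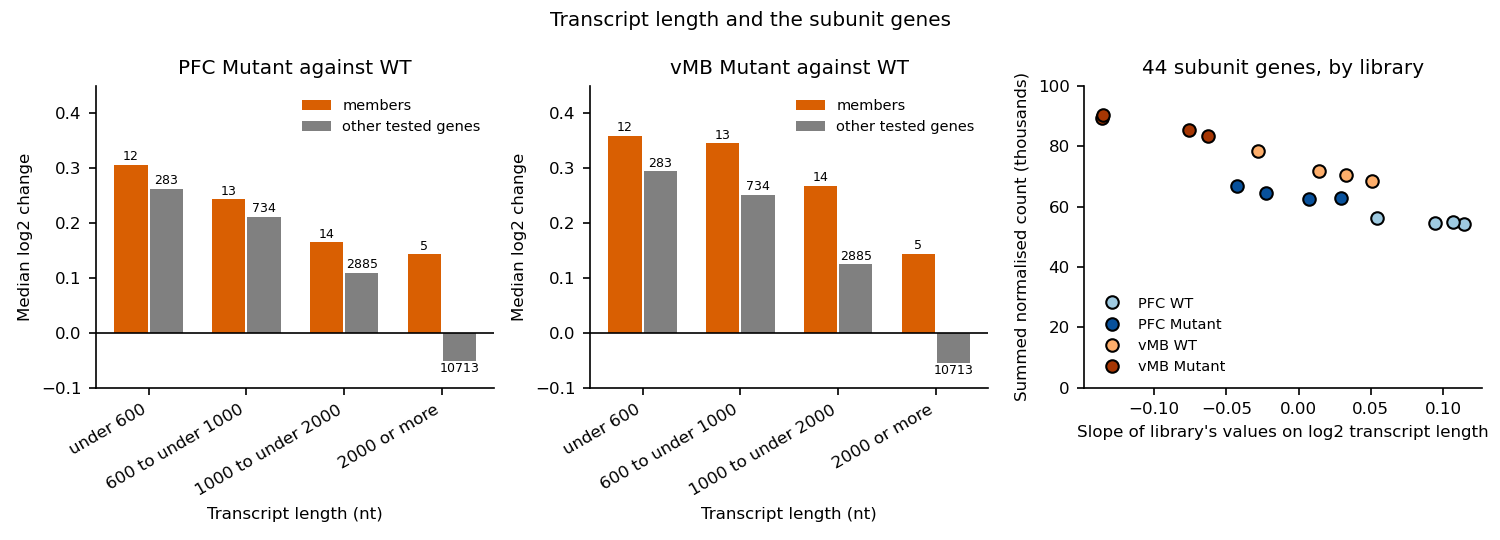
Left and middle, median log2 change, Mutant against WT, of members and of other tested genes by transcript length class (nt), with the number of genes above or below each bar. Right, summed normalised read count of the 44 genes (in units of 1000, y axis from 0) in each library against the slope of that library's values on log2 transcript length; within each tissue the Mutant libraries have lower slopes and higher sums than the WT libraries.

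Cell type markers were read beside these changes. None of 8 neuronal markers was called between genotypes, the medians being -0.07 (PFC) and 0.02 (vMB), and the sum of their values ranged from 50134 to 57064 in vMB WT and from 49409 to 55701 in vMB Mutant. Oligodendrocyte markers had medians of 0.27 and 0.12, astrocyte markers of -0.12 and 0.01 and markers of ependyma and choroid plexus of 0.08 and 0.17, with none called. All 6 tested vMB markers had a negative log2 change in the vMB, with a median of -0.33 and none called. The sum of the vMB marker list ranged from 2048.7 to 2803 in vMB WT and from 1675.6 to 2260.4 in vMB Mutant, with overlap. Of 7 endothelial markers, Cdh5, Flt1, Pecam1 and Tek were called lower in Mutant vMB, beside 2.02% of all tested genes. The endothelial median there was -0.6, and the summed value ranged from 1341.7 to 1850.1 in WT and from 1070.1 to 1387.4 in Mutant. Of the pericyte list Pdgfrb was called lower in the vMB. Of the microglial list P2ry12 was called higher there, beside 1.23% of all tested genes. Of 6 striated muscle markers only Acta1 passed the filter on low values. The part of these cell types in the members' changes was not tested, and in bulk tissue fewer cells of a type and less RNA per cell cannot be told apart.

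The mean of 10 that closed the list left 4 isoforms of complex IV just inside it, Cox7a1 at 14.4, Cox4i2 at 15.6, Cox6b2 at 19.1 and Cox6a2 at 40.1. Just outside was Cox8b, the heart and muscle form of subunit 8, at 5.86. Cox7b2, Atp5l2 and Cox8c had means of 1.26, 0.42 and 0.081. Several subunit genes have near-identical pseudogenes, so reads may be shared with them, and exons of Uqcrb, Uqcrc2, Cox5a, Cox6a2, Atp5a1, Atp5d, Atp5f1, Atp5j, Atp5l and Atp5o overlap those of other genes, for Atp5o on the same strand too; their values are uncertain to that extent.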

How the data were processed

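Poly-A RNA sequencing libraries were trimmed, aligned and counted per gene by the authors with Cutadapt 1.8.3, TopHat2 2.0.10 and HTSeq 0.6.1p1, per the submitters' processing notes, and normalised with DESeq2 (version not given). These normalised read counts, on a linear scale with 1 column per library, were deposited by the authors and are treated as a signal unit. The methods name a human build and annotation although the gene IDs are mouse, so the mouse build is not known, and the use of strand in counting is not given. Low values were not whole reads (72.0 to 74.5% within tolerance of a whole step), so no count test was run. The table also holds the authors' fold changes and p-values, which were not used.

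Values were tested as log2(value + 1) with limma 3.58.1 (R 4.3.3) and a mean-variance trend, in a fit over 4 groups and 16 libraries, for 14814 genes with a mean of at least 10, with Benjamini-Hochberg adjustment. Calls needed both a fold of 1.3 or more and an adjusted p no higher than 0.05. A log2 change on this scale understates that of low genes. The test was tried on simulated data. Single values were compared with exact two-sided permutation tests, which cannot go below 0.0286 here. Replicates of a group had correlations of 0.971 to 0.980, and none was a duplicate. Lengths and coordinates came from GENCODE vM21 (GRCm38), matched by gene ID for 99% of tested genes, and promoter windows from RefSeq (GRCm38.p6), matched by symbol or synonym. The length used was that of the best-ranked APPRIS transcript, the longest on ties.

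The members, gene lists and tests were chosen with earlier results of these data known. Members named with values were those called between genotypes, the highest and lowest of each complex by level, genotype change and tissue difference, all Sdh genes, and isoform pairs known to differ by tissue. Of other lists, members called between genotypes were named, and Th, Slc6a3, mt-Co3, Ppargc1a, Gabpa, Nrf1 and Acta1 were added after their values were seen, as were Cox4i1's vMB values, Uqcrfs1, Uqcrb, Uqcrc2, Atp5l, Tfam and Slc25a4. Alternatives were other pseudocounts, filters, scalings, samples, fold minimums, a replicate block, the title code as a correlated block, removal of length trends and leaving out each library.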

Additional observations from a re-analysis of the deposited data

Results flagged for a closer look

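Of 176 sets of 4 libraries, 9 had a library far from the other 3 by Dixon's test, a share of 9 in 176 where chance gives about 1 in 20. In the vMB, WT 1 was highest for Cox5a, at 1437 with the others at 1279 to 1294, and for Cox7b, at 1792.0 with the others at 1496 to 1544. WT 3 was highest for Atp5f1, at 2293 with the others at 2214 to 2225. vMB Mutant 4 was highest for Sdhb, at 1506 with the others at 1387 to 1403, and for Cox7a2l, at 1603 with the others at 1419 to 1429. In the PFC, Mutant 2 was highest for Uqcr11, at 849.8 with the others at 713 to 731, and for Cox5b, at 2468 with the others at 2214 to 2251. PFC WT 2 was highest for Cox4i1, at 2923 with the others at 2599 to 2616, and PFC WT 1 was lowest for Atp5c1, at 1279 with the others at 1381 to 1399.

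Cox8b, the heart and muscle form of subunit 8 of complex IV, was outside the comparisons because its mean was under 10. It was listed at 0, 0, 0 and 0 in PFC WT and at 2.59, 0, 0 and 1.12 in PFC Mutant. Its values were 5.68, 7.36, 4.85 and 7.59 in vMB WT and 10.9, 17.9, 21.2 and 14.6 in vMB Mutant, with a Mutant mean of 16.1. Every vMB Mutant library lay above every vMB WT library. These are values of a low gene with no test.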

How the results depend on the processing

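No member was called lower in a genotype comparison under any setting tried. In the PFC, the 1 member called higher became 0 with no filter on low values, quantile normalization, only the libraries compared, no mean-variance trend, the replicate block, either length trend removed with or without the block, and a fold of 1.5. It became 3 with a mean of at least 50 or upper quartile scaling and 2 with no fold minimum. In the vMB, the 13 members called higher became 4 with the exon length trend removed and 1 with the transcript length trend removed, with or without the replicate block, 29 with no fold minimum and 0 with a fold of 1.5. Over both tissues, the 2 called became 7 with upper quartile scaling, 6 with quantile normalization, 1 with the transcript length trend removed, with or without the block, 35 with no fold minimum and 0 with a fold of 1.5. Between tissues, a fold of 1.5 left 7 of 24 members higher in WT and 17 of 30 in Mutant, and 1 of 2 lower in each, as did a mean of at least 50, upper quartile scaling and quantile normalization for the lower calls. The complex II ratio in the PFC, 1.09, was 1.11 with upper quartile scaling. For these changes the cause was not tested, except that a higher filter tests fewer genes and a fold minimum acts by its construction.

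Leaving out a library gave 0 to 5 PFC calls, 2 to 17 vMB calls and 2 to 9 calls over both tissues, the latter highest without vMB WT 1, which was the highest WT library for most members. It gave 23 to 32 higher and 1 to 2 lower members between WT tissues, and 29 to 32 and 1 to 2 between Mutant tissues. Signs of single genes, none of them called, turned with a length trend removed, by exon length and by transcript length, with the same values under the replicate block. In the PFC these were Cox6a2 (-0.059 and -0.0776), Cox6b2 (-0.0421 and -0.0986) and Uqcrb (-0.00627 and -0.0603). In the vMB, by transcript length, they were Atp5g3 (-0.0287) and Cox5a (-0.0616), and over both tissues Cox5a (-0.0229) and Cox6b2 (-0.0347). Atp5sl in the vMB was at -0.000125 by exon length and between -0.00895 (without Mutant 4) and 0.103 with a library left out. Leaving out a library moved Cox7a1 in the PFC between -0.0756 (without Mutant 4) and 0.51. Sdha in the vMB, at -0.00916, turned to 0.0161 with upper quartile scaling, 0.0096 with the exon length trend and 0.0104 with the transcript length trend removed, and lay between -0.0281 and 0.0242 with a library left out, above 0 without WT 4 and without Mutant 4. The replicate numbers did not pair the libraries, since deviations of same-numbered libraries had correlations of -0.09 to 0.09, and the replicate block changed the PFC count only. The depth, at most 11.3 M reads a library, limits the 4 isoforms with means under 50.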
